A study of Mus musculus with 18 samples.

Results

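The 10 genes described here encode the invariant part of the αβ T cell receptor, its CD3 and ζ signaling chains and the CD4 and CD8 coreceptors. They were taken by symbol, 10 of the 37236 genes listed: Trac, Trbc1 and Trbc2, Cd3d, Cd3e, Cd3g and Cd247, and Cd4, Cd8a and Cd8b1. Their levels were followed in 18 samples of CD3+ tumor-infiltrating lymphocytes (TILs) from tumors of B16-OVA, a mouse melanoma line that carries the model antigen ovalbumin. The study asked how loss of NR2F6, a nuclear receptor, and antibody blockade of the checkpoint ligand PD-L1 change the TILs, alone and together.

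All mice were of the C57BL/6 strain, received 500000 tumor cells under the skin and had their tumors taken on day 14. Wild-type mice and Nr2f6-/- mice, which lack the gene in every cell and not in T cells alone, were given 0.5 mg of the isotype control IgG2b or of anti-PD-L1 (αPD-L1) from day 3 on. The labels give no age. The 4 groups held 3 wild-type IgG2b, 3 Nr2f6-/- IgG2b, 6 wild-type αPD-L1 and 6 Nr2f6-/- αPD-L1 samples. The library numbers fall into 2 sets, and the second holds replicates 4 to 6 of both αPD-L1 groups and no IgG2b sample. The cells were enriched with beads against CD4 and CD8, pooled and sorted for surface CD3, so the presence of these transcripts was set by the gate and is no finding. How the bead fractions were combined is not given in the sources used here, and the Cd8a to Cd4 ratio carries that step. Nr2f6 was at 0 in all 9 Nr2f6-/- samples and between 20.2 and 200.8 normalized counts in the 9 wild-type samples.

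A T cell recognizes peptide on MHC molecules with a receptor of an α and a β chain, whose constant regions come from Trac and from either Trbc1 or Trbc2. The receptor has no signaling motifs of its own and depends on CD3γ, CD3δ, CD3ε and the ζ chain, products of Cd3g, Cd3d, Cd3e and Cd247, which carry the ITAMs that the kinase LCK phosphorylates. CD4 binds MHC class II and marks helper and regulatory cells, while CD8, on most peripheral T cells a pair of the chains made by Cd8a and Cd8b1, binds MHC class I and marks cytotoxic cells.

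Values are normalized counts, reads of a gene divided by 1 size factor a sample, from 3′ end libraries with 12473391 to 18609482 reads on genes. All 10 genes passed the filter of a mean of at least 10 normalized counts, and the fewest reads of a member in any sample were 1596, of Cd4. Together they took 0.683% to 1.15% of a sample's normalized counts. Differences between groups are log2 fold changes from limma, fitted over 11992 genes and adjusted by Benjamini-Hochberg over all of them, and a gene was called at an adjusted p under 0.05. Levels come from sorted bulk RNA, so fewer cells of a type and less RNA per cell cannot be told apart.

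**Figure D1:**
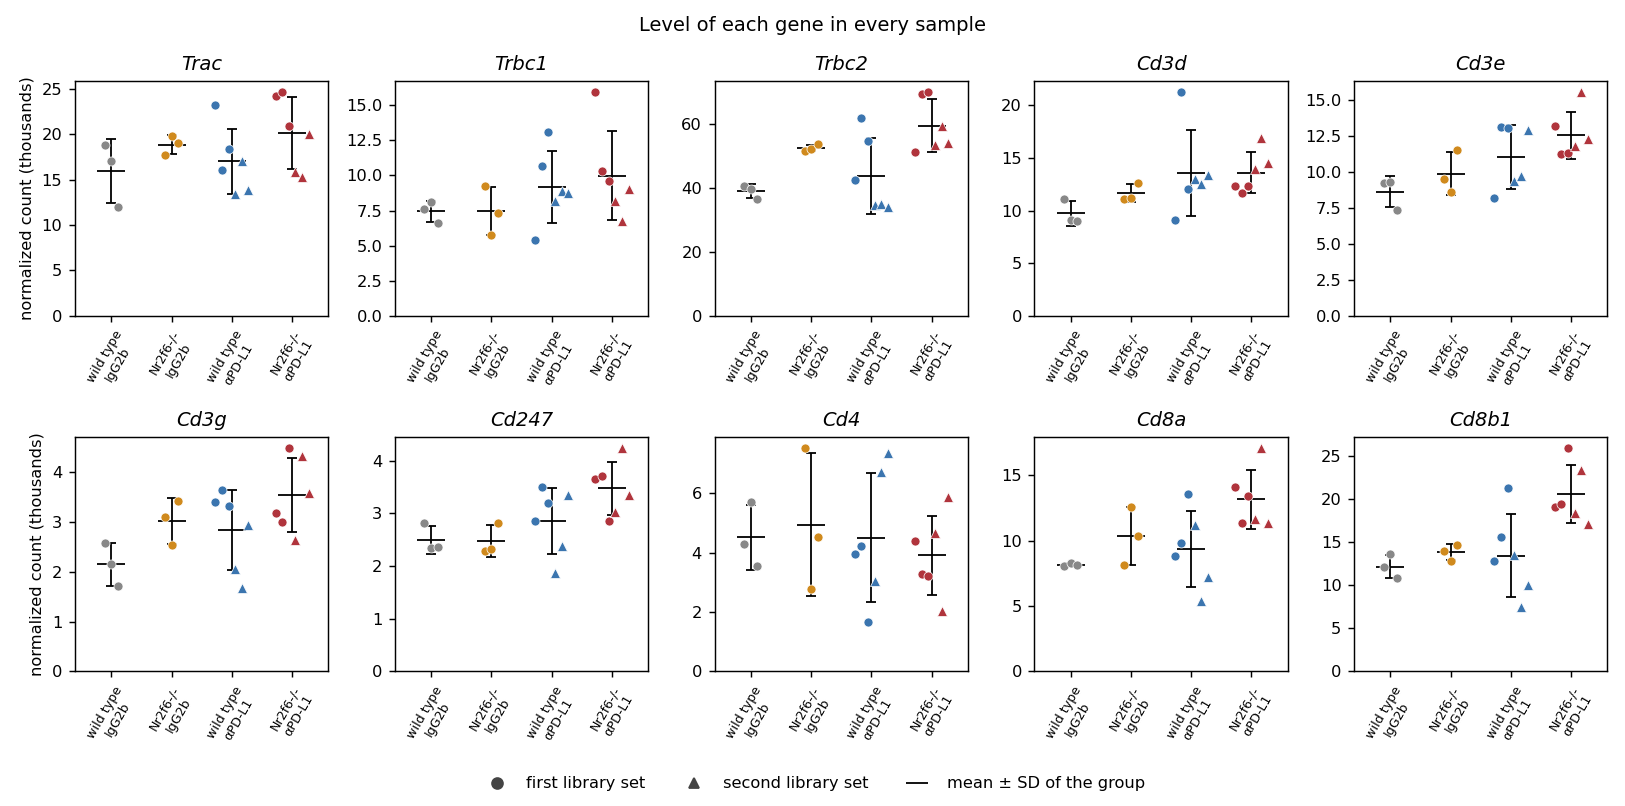
Normalized count in units of 1000 (y axis from 0) of each of the 10 genes in every sample of the 4 groups (x axis), with circles for the first and triangles for the second library set and the mean ± SD of the group in black. Trbc2, Cd8a and Cd8b1 of the Nr2f6-/- αPD-L1 samples lie above all 3 wild-type IgG2b samples, and Cd4 spreads widely in every group.

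Among the receptor constant genes Trbc2 had the largest estimates between genotypes, though none passed the threshold. On GRCm38 (mm10) coordinates, Trac lies at chr14:54220521-54224206, Trbc1 at chr6:41538218-41539881 and Trbc2 at chr6:41546730-41548352, all on the plus strand, and the β genes start 8.5 kb apart. The 521 constant-region coding bases of the β genes differ at 23 positions (95.6% identity) and are identical over the first 259. Of the 23 differences 22 lie between positions 361 and 521, counted from the first base of the constant exon, and past the stop codon the copies share 48.1% of the longer one's bases. Reads from the shared stretch could have been given to either gene, so each count is uncertain to that extent, whereas reads that cover the diverged end hold bases that differ. That end is shown from the GENCODE transcripts, with the differing bases in capitals.
Trbc1: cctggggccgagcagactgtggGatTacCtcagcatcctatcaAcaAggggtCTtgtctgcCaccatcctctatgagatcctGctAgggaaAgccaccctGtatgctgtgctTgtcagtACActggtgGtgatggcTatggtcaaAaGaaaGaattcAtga
Trbc2: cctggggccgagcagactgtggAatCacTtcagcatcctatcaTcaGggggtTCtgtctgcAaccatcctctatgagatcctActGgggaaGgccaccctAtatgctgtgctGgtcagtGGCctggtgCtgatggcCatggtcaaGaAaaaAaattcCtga

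Trbc2 was at 40722, 39741 and 36592 normalized counts in the wild-type IgG2b samples and at 51770, 52265 and 53763 in the Nr2f6-/- IgG2b samples. Every Nr2f6-/- IgG2b sample was thus above every wild-type one. With αPD-L1 it was at 34120 to 62044 (median 38839) in wild-type and at 51248 to 70055 (median 56718) in Nr2f6-/- mice. These ranges overlapped, through wild-type replicates 2 and 3. The log2 fold change between genotypes was 0.43 ± 0.22 (SE) with IgG2b and 0.47 ± 0.15 with αPD-L1, and neither passed the adjusted threshold (limma, adjusted p = 0.920 and 0.270). In the second library set the 3 wild-type αPD-L1 samples were at 34120 to 35003, and the 3 Nr2f6-/- ones at 53456 to 59431.

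Trbc1 showed no such split. It ranged from 5786 to 9231 in the IgG2b samples of both genotypes together and from 5412 to 15933 with αPD-L1, with the highest value in Nr2f6-/- αPD-L1 replicate 1. The log2 ratio of Trbc1 to Trbc2 within a sample was -2.40 ± 0.09 (SD, n = 3) in wild-type IgG2b and -2.85 ± 0.34 (n = 3) in Nr2f6-/- IgG2b samples. All 3 Nr2f6-/- values were below all 3 wild-type values (two-sided exact permutation test, adjusted p = 0.62 over the 31 ratio tests; the raw p of 0.1 was the lowest possible with 3 against 3). With αPD-L1 the genotypes differed by -0.35 in this ratio (p = 0.208, exact permutation test), by 0.10 in the first and -0.80 in the second library set.

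Trac, the only α constant gene, was at 11961 to 18809 in wild-type IgG2b, 17700 to 19765 in Nr2f6-/- IgG2b, 13386 to 23274 in wild-type αPD-L1 and 15337 to 24633 in Nr2f6-/- αPD-L1 samples. Group means followed the same order as for Trbc2, highest in Nr2f6-/- αPD-L1 (20145 ± 3963, SD, n = 6) and lowest in wild-type IgG2b (15951 ± 3561, n = 3), but neighbours in that order differed by less than the larger of their SDs.

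Of the signaling chains, Cd3d, Cd3e and Cd3g form 1 locus of 40.1 kb on chromosome 9: Cd3g at chr9:44969572-44980431 (minus strand), Cd3d at chr9:44981786-44987339 (plus) and Cd3e at chr9:44998740-45009627 (minus). Cd3g and Cd3d are transcribed away from each other from starts 1355 bases apart. Cd247 lies alone at chr1:165788681-165877277 (plus). Gene models of both strands overlap Cd3e and Cd247, among them Pou2f1 on the strand opposite to Cd247, and the strand setting of the counting is not given, so reads of these models could not be set apart. The 250 bases before the RefSeq start (GRCm38.p6) were at hand for 5 of the 10 genes: Cd3d, Cd3e, Cd3g, Cd247 and Cd8a. AGGAAG, the core bound by ETS factors, and TGNGGT were searched on both strands. TGNGGT is looser than the core bound by RUNX factors, which is TGYGGT with C or T at Y. AGGAAG was found in Cd3d, Cd3e and Cd247 and in 29.5% of all 32851 promoters, and TGNGGT in the 4 CD3 and ζ genes and in 40.1%. The TGNGGT matches read TGGGGT in Cd3d, Cd3e and Cd247 and TGAGGT in Cd3g, so none of them is a RUNX core. Neither pattern was found in Cd8a, which says only that these letters are absent from this window. The 3 promoters with both patterns are shown with the matches in capitals. No match overlapped another.
Cd3d, chr9:44981536-44981785, plus strand: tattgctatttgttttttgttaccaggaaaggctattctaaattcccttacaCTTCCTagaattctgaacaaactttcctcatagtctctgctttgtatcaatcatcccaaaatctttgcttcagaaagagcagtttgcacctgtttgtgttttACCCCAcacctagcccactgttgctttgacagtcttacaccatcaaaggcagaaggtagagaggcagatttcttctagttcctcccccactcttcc
Cd3e, chr9:45009612-45009861, minus strand: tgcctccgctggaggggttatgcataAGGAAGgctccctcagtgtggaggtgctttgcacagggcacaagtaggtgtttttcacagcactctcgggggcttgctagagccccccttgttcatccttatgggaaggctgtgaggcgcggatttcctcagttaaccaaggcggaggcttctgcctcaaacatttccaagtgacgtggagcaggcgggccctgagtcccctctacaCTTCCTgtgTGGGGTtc
Cd247, chr1:165788431-165788680, plus strand: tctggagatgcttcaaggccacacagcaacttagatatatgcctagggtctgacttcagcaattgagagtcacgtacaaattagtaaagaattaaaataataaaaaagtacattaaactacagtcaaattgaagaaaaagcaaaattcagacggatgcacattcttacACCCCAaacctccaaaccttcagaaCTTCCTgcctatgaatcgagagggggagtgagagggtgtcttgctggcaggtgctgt

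Cd3e, the chain that pairs with both CD3γ and CD3δ, was at 9251, 9274 and 7381 in wild-type IgG2b and at 9499, 8617 and 11546 in Nr2f6-/- IgG2b samples, with overlap. With αPD-L1 it ranged from 8205 to 13154 (median 11290) in wild-type and from 11237 to 15541 (median 12030) in Nr2f6-/- mice. All 6 Nr2f6-/- αPD-L1 samples were above all 3 wild-type IgG2b samples. Cd3g had its lowest group mean in wild-type IgG2b samples (1721, 2153 and 2579) and was at 2531, 3103 and 3428 in Nr2f6-/- IgG2b samples. Under αPD-L1 it spanned 1670 to 3642 in wild-type and 2642 to 4493 in Nr2f6-/- mice, and the 2 lowest wild-type samples, replicates 4 and 5, were of the second library set.

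Cd3d was at 9001 to 11081 in wild-type and at 11141 to 12661 in Nr2f6-/- IgG2b samples, without overlap. Its highest value, 21244, was in wild-type αPD-L1 replicate 2, and the other 11 αPD-L1 samples lay between 9142 and 16892. Cd247, the ζ chain, overlapped between the IgG2b groups (2335 to 2810 and 2286 to 2825). It ranged from 1861 to 3493 in wild-type αPD-L1 and from 2857 to 4245 in Nr2f6-/- αPD-L1 samples, the latter all above every IgG2b sample of either genotype. Relative to the sum of Cd3d, Cd3e and Cd3g, Cd247 was lower in all 3 Nr2f6-/- IgG2b than in all 3 wild-type IgG2b samples, with a log2 difference of -0.28 (adjusted p = 0.62, exact permutation test, again at the lowest raw p for 3 against 3).

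Of the coreceptor genes, Cd8b1 (chr6:71322788-71337494) and Cd8a (chr6:71373427-71379173) lie in the same orientation with starts 50.6 kb apart, and Cd4 lies at chr6:124864692-124888221 on the minus strand of the same chromosome. Cd8b1 was at 12065, 13557 and 10827 in wild-type IgG2b and at 13967, 12819 and 14618 in Nr2f6-/- IgG2b samples. With αPD-L1 the lowest, median and highest values were 7444, 13159 and 21243 in wild-type and 17059, 19268 and 25918 in Nr2f6-/- mice. Only wild-type αPD-L1 replicate 3 reached into the Nr2f6-/- αPD-L1 range, and all 6 samples of the latter were above all 6 IgG2b samples. This separation from both IgG2b groups, like that of Cd247, was seen in the values and was not counted over all genes. Nr2f6-/- αPD-L1 samples lay above all Nr2f6-/- IgG2b samples for 1.97% of genes, and above all wild-type IgG2b samples for 2.17%.

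Cd8a was nearly the same in the 3 wild-type IgG2b samples (8102, 8327 and 8108) and was at 8129, 12597 and 10395 in the Nr2f6-/- IgG2b samples. In αPD-L1 samples it spanned 5361 to 13579 (median 9330) in wild-type and 11329 to 17120 (median 12528) in Nr2f6-/- mice. The lowest 2 of all 18 samples, 5361 and 7195, were wild-type αPD-L1 replicates 5 and 6.

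Cd4 did not separate the groups. It was at 4282, 5708 and 3544 in wild-type IgG2b and at 7530, 2767 and 4533 in Nr2f6-/- IgG2b samples. Under αPD-L1 it ranged from 1669 to 7358 (median 4092) in wild-type and from 2026 to 5857 (median 3827) in Nr2f6-/- mice. Every pair of groups overlapped. The SD of Cd4 within groups was 0.64 on the log2 scale, above that of 95.8% of the 2767 genes that averaged 1000 normalized counts or more, whose median was 0.36. The other 9 genes had SDs of 0.23 (Cd3e) to 0.38 (Trbc1), with 0.34 for Cd8a and 0.35 for Cd8b1.

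The Cd8a to Cd4 ratio of normalized counts put these levels into 1 value a sample, which does not depend on the size factor. It was 1.89, 1.46 and 2.29 in wild-type IgG2b and 1.08, 4.55 and 2.29 in Nr2f6-/- IgG2b samples. In wild-type αPD-L1 replicates 1 to 6 it was 2.23, 2.32, 8.13, 3.67, 0.799 and 0.978. Nr2f6-/- αPD-L1 replicates 1 to 6 had ratios of 3.22, 3.46, 4.18, 2.49, 8.45 and 1.93. Cd8a reads thus outnumbered Cd4 reads in 16 of 18 samples, the exceptions being wild-type αPD-L1 replicates 5 and 6.

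**Figure D2:**
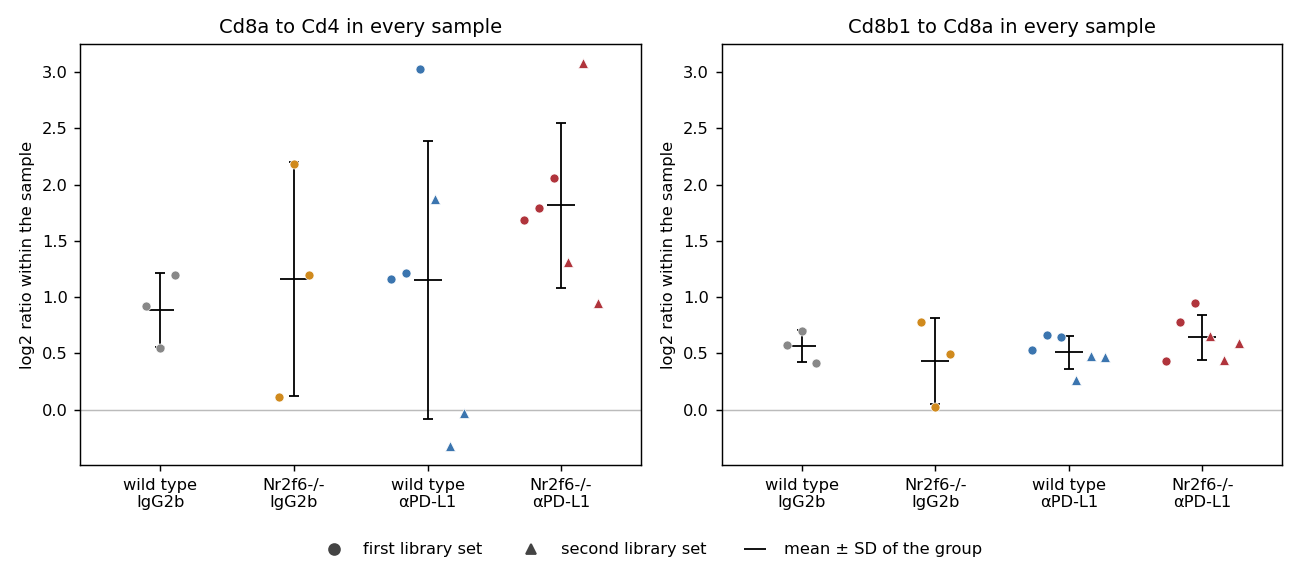
Log2 ratio within each sample (y axis, same scale in both panels) of Cd8a to Cd4 on the left and of Cd8b1 to Cd8a on the right, by group (x axis), with circles for the first and triangles for the second library set and the mean ± SD of the group in black. The Cd8a to Cd4 ratio runs from -0.32 to 3.08, and the Cd8b1 to Cd8a ratio only from 0.03 to 0.95.

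On the log2 scale the ratio was 0.89 ± 0.33 (SD, n = 3) in wild-type IgG2b, 1.16 ± 1.04 (n = 3) in Nr2f6-/- IgG2b, 1.15 ± 1.23 (n = 6) in wild-type αPD-L1 and 1.81 ± 0.73 (n = 6) in Nr2f6-/- αPD-L1 samples. The genotypes differed by 0.66 ± 0.59 (SE) with αPD-L1 (exact permutation test, two-sided, p = 0.284), by 0.05 in library set 1 and 1.27 in library set 2. With IgG2b they differed by 0.28 ± 0.63 (p = 0.7, exact permutation test). αPD-L1 differed from IgG2b by 0.27 ± 0.54 in wild-type mice (p = 0.738, exact permutation test) and by 0.65 ± 0.67 in Nr2f6-/- mice (p = 0.357, exact permutation test). In library set 1, the only one with IgG2b samples, these were 0.91 (p = 0.2, exact permutation test) and 0.68 (p = 0.4, exact permutation test). Over all samples of the groups, none of these differences was larger than the spread between samples. The difference of the treatment effect between genotypes, 0.38, was likewise not beyond it (permutation of genotype within treatment, 18480 reassignments, p = 0.657), and was -0.23 in the first library set.

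Nr2f6-/- αPD-L1 samples had a higher ratio than wild-type IgG2b samples by 0.93 ± 0.35, with 5 of 6 above all 3 (exact permutation test, p = 0.0476, adjusted p = 0.62 over the 31 ratio tests), and by 0.96 in the first library set alone. The same groups differed by -0.79 in Cd4 relative to the summed CD3 genes (p = 0.0476, exact permutation test, adjusted p = 0.62) and by 0.14 in Cd8a relative to that sum (p = 0.262, exact permutation test). Cd8b1 to Cd8a stayed between 0.03 and 0.95 on the log2 scale, and no comparison of it had an exact permutation p under 0.214. None of the 25 tests of the 5 further ratios passed the adjusted threshold, and 1 had an unadjusted p under 0.05.

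**Figure D3:**
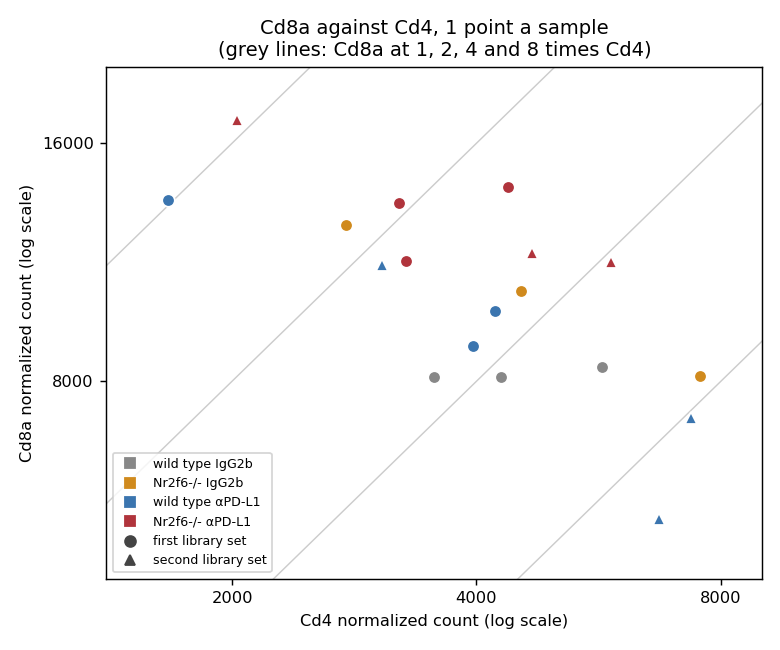
Normalized count of Cd8a (y axis, log scale) against that of Cd4 (x axis, log scale) with 1 point a sample, colored by group, circles for the first and triangles for the second library set, and grey lines where Cd8a is 1, 2, 4 and 8 times Cd4. Samples with more Cd4 have less Cd8a, and at a like Cd4 level the Nr2f6-/- αPD-L1 samples lie above the wild-type IgG2b ones.

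How the genes vary from sample to sample was described with the group means removed, as Pearson's r over 18 samples that share 1 scaling. Cd4 and Cd8a had r = -0.86 (Spearman's rho = -0.78), -0.80 without the 2 samples farthest from the median of Cd4 and -0.83 with the means of each group and library set removed. Cd8a and Cd8b1 had r = 0.81 (rho = 0.69), which fell to 0.51 without the 2 samples farthest in Cd8a. Cd4 and Cd8b1 had r = -0.67 (rho = -0.52), -0.46 without the 2 samples farthest in Cd4. Among the signaling chains Cd3e went with Cd247 (r = 0.70, rho = 0.70), 0.79 without the 2 samples farthest in Cd3e. Cd3e and Cd3d had r = 0.67 (rho = 0.54), which fell to 0.51 without the 2 samples farthest in Cd3d. Cd3d and Cd3g, whose starts lie 1355 bases apart, had r = 0.26 (rho = 0.14). Trbc2 and Cd8b1 had r = 0.73 (rho = 0.72), 0.67 without the 2 samples farthest in Cd8b1, but 0.44 with the means of each group and library set removed. Trbc2 and Trbc1 had r = 0.24 (rho = 0.31), 0.51 without the 2 samples farthest in Trbc1 and 0.14 with the set means removed. Trac and Cd3d had r = -0.44 (rho = -0.55). No p is given for these values.

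**Figure D4:**
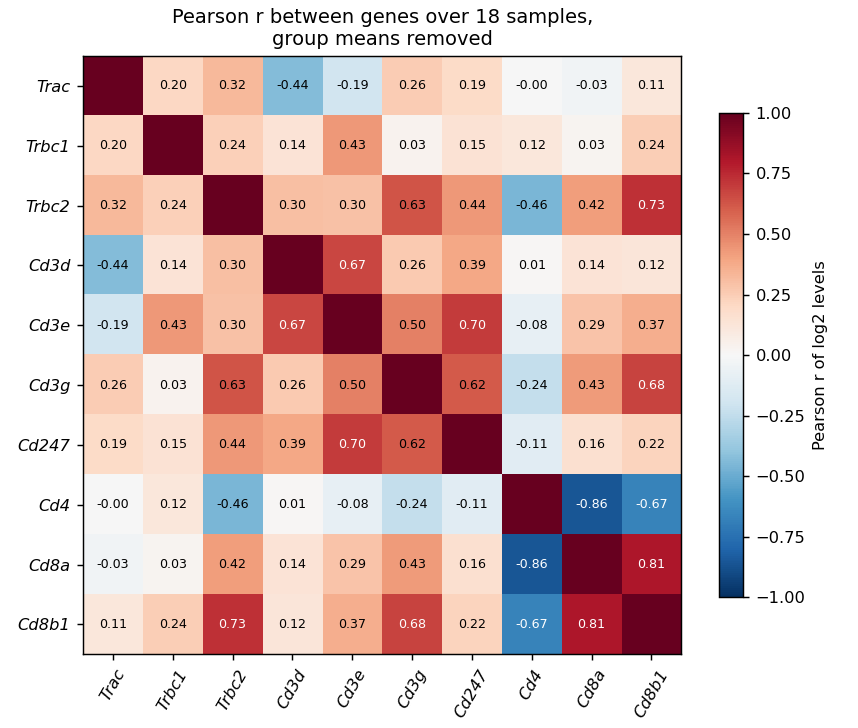
Pearson's r between the log2 levels of each pair of the 10 genes over 18 samples after the mean of each group was removed, on a color scale from -1 (blue) to 1 (red) with the value in each cell. Cd4 is opposed to Cd8a (-0.86) and Cd8b1 (-0.67), and Cd3e, Cd247, Cd3g and Cd3d are all positive to each other (0.26 to 0.70).

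Outside the 10 genes, those most like the Cd8a to Cd4 log2 ratio over the 18 samples, group means removed, were Itga4 (r = 0.85), the α4 integrin chain, Tmtc4 (0.79), B230354K17Rik (0.78), Zfp58 (0.78), Dnajb11 (0.77) and Car2 (0.76). Those most opposed were Paox (-0.85), Ly6e (-0.84), Trim21 (-0.82), 5730508B09Rik (-0.80), Mapkapk2 (-0.80) and Maf (-0.80), a transcription factor of helper T cell subsets. Of the members that are not in the ratio, Cd8b1 had r = 0.74 and the other 7 lay between -0.07 and 0.46. Among all 9639 genes that averaged 50 normalized counts or more 95% had an r between -0.56 and 0.55. Of the CD4 lineage list all 11 genes measured at that level had an r below 0 (median -0.28), and of the CD8 and cytotoxic list 12 of 15 had one above 0 (median 0.26). The relation was not limited to these lists: all 5 melanocyte markers at that level had an r below 0 (median -0.49, with Pmel at -0.57 and Dct at -0.53), as did 21 of 31 T cell surface and signaling genes (median -0.15), and 9 of 14 macrophage markers had one above 0 (median 0.10). The part of tumor cell RNA in the ratio was not tested. Tnfrsf18 (-0.73) and Foxp3 (-0.69), both high in regulatory T cells, were the most opposed of the CD4 list. Zbtb7b of that list (-0.06) and Runx3 of the CD8 and cytotoxic list (0.05), transcription factors of these lineages, lay close to 0. All of these genes were picked after their values were seen.

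Between the treatments and genotypes no member passed the adjusted threshold in limma, and Cd8b1 came closest. In Nr2f6-/- against wild-type mice with αPD-L1, 0 of 10 members were called, against 0.175% of all genes (21 of 11992), and 3 of 10 had an unadjusted p under 0.05, against 9.73% of all genes. These were Cd8b1 (log2 fold change 0.67 ± 0.18, SE, adjusted p = 0.121), Cd8a (0.54 ± 0.18, adjusted p = 0.278) and Trbc2 (0.47 ± 0.15, adjusted p = 0.270). The 95% intervals were 0.31 to 1.04, 0.18 to 0.90 and 0.16 to 0.78. edgeR called 0 of 10 and DESeq2 called 1, Cd8b1 (0.61, adjusted p = 0.0414), where it called 1.53% of all genes (184 of 11992). Cd8b1 was also past the threshold in limma without wild-type αPD-L1 replicate 3 (0.82, adjusted p = 0.0285, in a fit that called 0.225% of all genes), the sample with the highest Cd8a to Cd4 ratio of its group. Of the 10 estimates 9 were above 0, with a median of 0.27 against -0.0049 over all genes, and the 1 below was Cd4 (-0.12 ± 0.29).

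This difference was uneven between library sets. Cd8b1 differed by 0.40 in the first and 0.95 in the second set, Cd8a by 0.29 and 0.79, Cd3g by 0.02 and 0.67, and Cd4 by 0.24 and -0.48. In the second set, looked at alone after the values were seen, the 3 Nr2f6-/- samples lay above the 3 wild-type samples for 4 of 10 members, Cd3d, Cd8a, Cd8b1 and Trbc2, against 5.5% of all genes. In the first set this held for 0 of 10, against 6.58%. Markers of other cells overlapped between these groups but reached higher in wild-type samples: the summed 14 macrophage markers were at 1677 to 6815 normalized counts in wild-type and at 929 to 2626 in Nr2f6-/- αPD-L1 samples, and the summed 8 melanocyte markers at 2077 to 7835 and 799 to 4489, with none called. Their part in the result was not tested.

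In IgG2b-treated mice 0 of 10 members were called between genotypes, against 0% of all genes (0 of 11992 in limma and edgeR, 88 in DESeq2), and 0 of 10 had an unadjusted p under 0.05, against 5.35% (641 genes). edgeR and DESeq2 called 0 of 10 each. Cd3g (0.50 ± 0.28), Trbc2 (0.43 ± 0.22) and Cd8a (0.32 ± 0.25) had the largest estimates. Cd3d and Trbc2 were higher in all 3 Nr2f6-/- than in all 3 wild-type samples, 2 of 10 members against 6.1% of all genes and 11.6% of the 2767 more abundant genes (mean of 1000 or more). With every sample scaled to the same total of reads only Trbc2 kept this separation, 1 of 10 members against 5.3% of all genes. Markers of other cells separated the same samples: the macrophage sum was at 16369 to 20855 normalized counts in wild-type and 9860 to 13368 in Nr2f6-/- IgG2b samples, the melanocyte sum at 2579 to 4757 and 1240 to 2433, and the sum of 5 platelet genes at 2300 to 2611 and 268 to 703. None of these genes was called, and their part in the result was not tested.

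αPD-L1 against IgG2b gave 0 of 10 called members in wild-type mice, against 0.242% of all genes, and 0 of 10 in Nr2f6-/- mice, against 0.325%. edgeR and DESeq2 called 0 of 10 in both. Unadjusted p-values under 0.05 were found for 1 member in wild-type mice, Cd3d (0.44 ± 0.19, adjusted p = 0.621), and for 2 in Nr2f6-/- mice, Cd8b1 (0.56 ± 0.22, adjusted p = 0.357) and Cd247 (0.48 ± 0.21, adjusted p = 0.442), against 7.24% and 9.70% of all genes. Both genotypes had 9 of 10 estimates above 0, with Cd4 below (-0.14 ± 0.35 and -0.30 ± 0.35). Each Nr2f6-/- αPD-L1 sample was above each Nr2f6-/- IgG2b sample for 2 of 10 members, Cd247 and Cd8b1, against 1.97% of all genes, and in wild-type mice this held for 0 of 10, against 1.32%. The difference of the 2 effects had 0 of 10 called members, against 0% of all genes (596 at an unadjusted p under 0.05, 0 called by edgeR and 76 by DESeq2), with edgeR and DESeq2 also at 0 of 10 and no member at an unadjusted p under 0.05, and its largest estimate was that of Cd8b1 (0.49 ± 0.31). In the same comparisons the macrophage sum was lower in every αPD-L1 sample than in every IgG2b sample. Its part in the result was not tested.

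Nr2f6-/- αPD-L1 against wild-type IgG2b, where both interventions differ, gave the largest median. Again 0 of 10 members were called by limma, against 0.617% of all genes (74 of 11992), but 7 of 10 had an unadjusted p under 0.05, against 9.04% of all genes. The estimate of Cd8b1 was 0.75 ± 0.22 (adjusted p = 0.132), that of Cd3g 0.71 ± 0.24 (adjusted p = 0.225), that of Cd8a 0.67 ± 0.22 (adjusted p = 0.196), that of Trbc2 0.60 ± 0.19 (adjusted p = 0.169) and that of Cd3e 0.54 ± 0.18 (adjusted p = 0.213), none of them past the threshold. The estimates of Cd3d (0.48), Cd247 (0.47), Trbc1 (0.38) and Trac (0.34) followed, and Cd4 was at -0.26 ± 0.35. The median of the members was 0.51, against -0.12 over all genes.

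Every Nr2f6-/- αPD-L1 sample was above every wild-type IgG2b sample for 7 of 10 members, namely Cd3d, Cd3e, Cd3g, Cd247, Cd8a, Cd8b1 and Trbc2, against 2.17% of all genes and 5.78% of the more abundant genes (mean of 1000 or more). Scaled to the same total of reads it was 5 of 10, without Cd3g and Cd247, against 1.47%. With the library set as a covariate Cd8b1 (0.95, adjusted p = 0.0210) and Trbc2 (0.80, adjusted p = 0.0178) passed the threshold in limma, in a fit that called 0.734% of all genes (88 of 11992). The set term rests on αPD-L1 samples alone and takes the genotypes to differ alike in both sets, whereas Cd8b1 differed unevenly. That fit therefore cannot show that the result holds apart from the set, and the first library set alone gave 0 of 10 in limma. DESeq2 without a set term called Cd8b1 and Trbc2 as well (adjusted p = 0.0414 and 0.0373) and 1.48% of all genes (177 of 11992), while edgeR called 0 of 10. The 5 comparisons share groups, so their member values are not independent of each other.

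**Figure D5:**
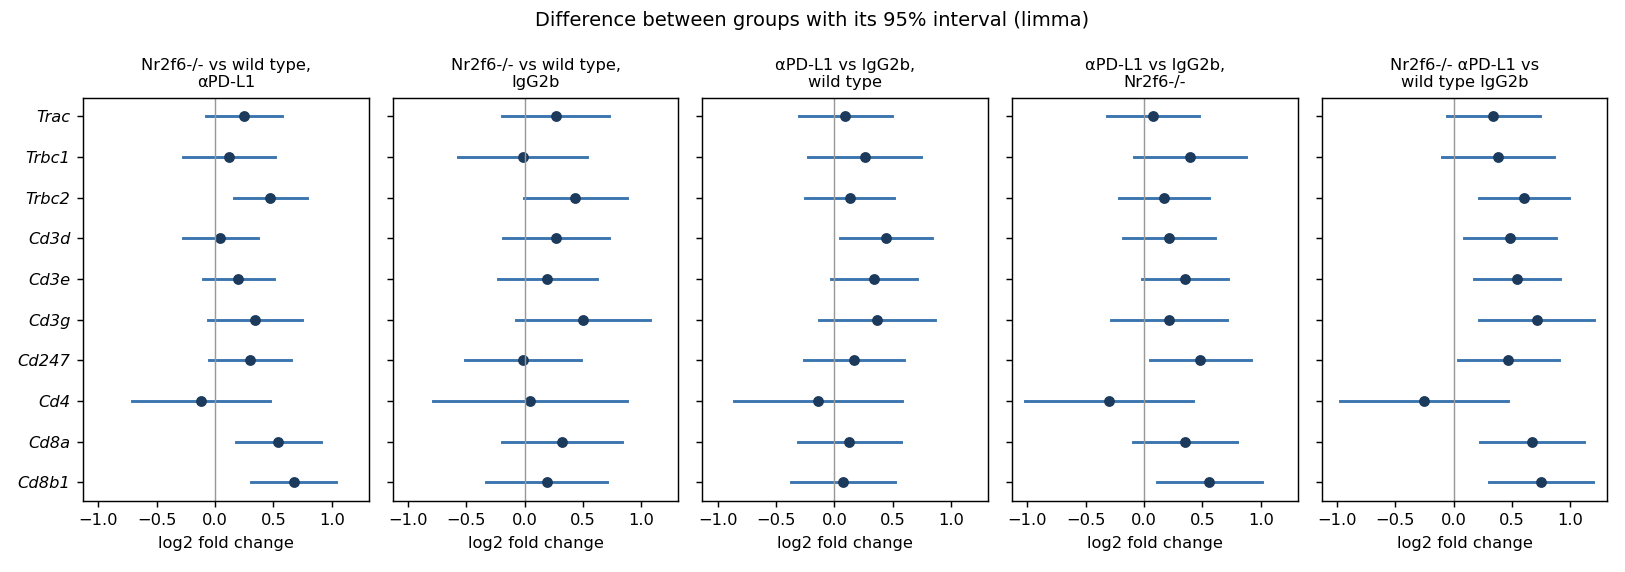
Log2 fold change (x axis) with its 95% interval from limma for the 10 genes (rows) in the 5 comparisons of groups (panels), with a grey line at 0. Cd4 is the member with the widest interval in each panel, and 7 intervals exclude 0 in the panel of Nr2f6-/- αPD-L1 against wild-type IgG2b although no adjusted p passed the threshold.

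Other genes of T cells were read from lists drawn up with earlier results of these data known. For these lists and those of other cells, fold changes are given over both library sets, and only αPD-L1 groups held second-set samples. The shares of all genes called were 0.175% between genotypes with αPD-L1 and 0.617% for Nr2f6-/- αPD-L1 against wild-type IgG2b. For αPD-L1 against IgG2b they were 0.242% in wild-type and 0.325% in Nr2f6-/- mice. Of 32 T cell surface and signaling genes 0 were called between genotypes with αPD-L1 (25 estimates above 0, median 0.24). In αPD-L1 against IgG2b in wild-type mice 1 of the 32 was called, Tcf7, a transcription factor of naive and memory-like T cells, which fell by 1.45 ± 0.26 (adjusted p = 0.00912), and in Nr2f6-/- αPD-L1 against wild-type IgG2b its log2 fold change was -1.49 ± 0.26 (adjusted p = 0.00618). Of the 12 CD4 lineage genes 0 were called in any comparison of groups, and in Nr2f6-/- αPD-L1 against wild-type IgG2b 9 were below 0 (median -0.42).

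Of the 15 genes of the CD8 and cytotoxic list, 1 was called with αPD-L1 as higher in Nr2f6-/- than in wild-type mice: Ccl5, a chemokine of effector T cells (1.51 ± 0.22, adjusted p = 0.000732), and 14 of 15 estimates were above 0 (median 0.59). αPD-L1 against IgG2b gave the same call in Nr2f6-/- mice (Ccl5, 1.46 ± 0.27, adjusted p = 0.0109) and 0 of 15 in wild-type mice, and the genotypes with IgG2b 0 of 15. In Nr2f6-/- αPD-L1 against wild-type IgG2b 4 were called as higher: Ccl5 (1.69 ± 0.27), Klrk1 (1.27 ± 0.27), Klrc1 (1.14 ± 0.25) and Nkg7 (1.10 ± 0.21), with adjusted p of 0.00186, 0.0191, 0.0280 and 0.00920. Klrk1 and Klrc1 encode the lectin-like receptors NKG2D and NKG2A, and Nkg7 a protein of cytotoxic granules. The summed level of the list was 103132 to 108226 normalized counts in wild-type IgG2b, 124404 to 151850 in Nr2f6-/- IgG2b, 88400 to 212094 in wild-type αPD-L1 and 217379 to 281179 in Nr2f6-/- αPD-L1 samples. Most of it came from Ccl5 and Nkg7, with means of 75022 and 39822 over all samples, so the sum does not stand for the whole list. Between genotypes with αPD-L1 the lowest estimates of the list were those of Prf1 (-0.33), Cst7 (0.02) and Runx3 (0.03).

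Markers of cells other than αβ T cells were summed in each sample, where the 10 members took 0.683% to 1.15% of the normalized counts. Sums over so few genes do not measure the share of these cells or of their RNA. The 14 macrophage markers summed to at most 0.136% of a sample's normalized counts, with no marker at 0 in a whole group. All 14 had estimates below 0 in αPD-L1 against IgG2b in both genotypes. Lyz2, with Apoe the most abundant of them, had a log2 fold change of -2.83 ± 0.39 in wild-type and -2.87 ± 0.39 in Nr2f6-/- mice (adjusted p = 0.000387 and 0.000318), and C1qb of -3.27 ± 0.63 in Nr2f6-/- mice (adjusted p = 0.0123). In Nr2f6-/- αPD-L1 against wild-type IgG2b 5 of 14 were called as lower, Adgre1, Mrc1, Apoe, Lyz2 and C1qb. The 8 melanocyte markers, led by Dct and Pmel, summed to at most 0.0513% of a sample. The 7 γδ T cell genes, led by Tcrg-C2, summed to 800 to 2979 normalized counts, with Trdv4 at 0 in all 18 samples. The 5 platelet genes, led by Pf4 and Ppbp, summed to 2300 to 2611 in wild-type IgG2b samples and to 703 at most elsewhere, with Gp9 at 0 in all 18. Of these, Ppbp was called as lower in αPD-L1 against IgG2b in wild-type mice, and Ppbp and Pf4 in Nr2f6-/- αPD-L1 against wild-type IgG2b. The sums of 5 NK, 7 B cell and 7 dendritic cell markers, led by Klri2, Cd79b and Itgax, were each at most 0.00853% of a sample, with Cd79a at 0 in all 18, and Klri2 was called as higher in Nr2f6-/- αPD-L1 than in wild-type IgG2b samples (4.27 ± 0.97, adjusted p = 0.0337). The part of these cells in the differences of the members was not tested.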

How the data were processed

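RNA of CD3+ TILs was sequenced in 18 samples with a 3′ mRNA kit on an Ion Torrent Proton. The authors trimmed reads with Cutadapt and Trimmomatic, removed those under 22 nucleotides, aligned what remained (STAR, followed by Bowtie2; mm10), took 1 primary alignment for a multi-mapping read, counted with HTSeq-count and used DESeq2. Annotation, strand setting and versions are not given in the sources used here. The deposited values are a signal per gene and sample, each read count divided by 1 size factor a sample (0.823 to 1.22). All 18 columns were used. Dividing by the step of each column gave whole reads for 100% of values (tolerance 0.01). No columns were identical (0 of 153 pairs). The floor of 3 reads was 2.46 to 3.64 normalized counts and covers counting error only, since the values carry no molecular identifiers.

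Groups came from the labels. The labels do not say whether each sample is from a different mouse, and a figure of the study counts fewer αPD-L1 mice than there are samples here. The tests took each sample as 1 mouse, and p-values measure the spread between samples. limma 3.58.1 (R 4.3.3) was run on log2(normalized count + 1) with eBayes and trend, 1 model of 4 group means over 18 samples, on 11992 of 37236 genes, those that averaged 10 normalized counts or more. Fold changes are on that scale. Tests were two-sided and adjusted by Benjamini-Hochberg. Log2 ratios (1 added to each gene) were compared with exact permutation tests in SciPy and adjusted over 31 tests. The smallest possible p was 0.1 for 3 against 3, 0.0238 for 3 against 6 and 0.00216 for 6 against 6. Alternatives were pseudocounts of 0.5 and 10, no filter and a mean of at least 50, scaling to the same total, quantile normalization, fewer groups, library set or replicate number in the model, single library sets, leaving out each sample, and edgeR 4.0.16 and DESeq2 1.42.0 on the recovered reads. The limma code was tried on simulated counts with the same dispersion for every gene and no library set effect. Real genes differ in their spread, so that trial does not bear on the results here. The members and lists were chosen with earlier results of these data known. The text names all 10 members, called genes of each list (at most 4 a comparison and list, with the fifth macrophage gene added after its values were seen), the 2 most abundant genes of lists of other cells, and the 6 genes most and least like the Cd8a to Cd4 ratio. Prf1, Cst7, Runx3, Zbtb7b, Tnfrsf18 and Foxp3 were named after their values were seen. Coordinates and sequences are from GENCODE vM21 and RefSeq (GRCm38).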

Additional observations from a re-analysis of the deposited data

Results flagged for a closer look

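Of 32 sets of 6 values tested for a single sample far from the rest (10 genes and 6 ratios in each αPD-L1 group), 1 held such a sample, where chance gives about 1 in 20. Cd3d in wild-type αPD-L1 replicate 2 was at 21244 normalized counts, and the next highest of the 6 samples was at 13360 (a gap of 0.651 of the whole range, above Dixon's 95% limit for 6 samples). The other CD3 genes of that sample, Cd3e (13154) and Cd3g (3642), were the highest of their group as well, with gaps that stayed under the limit. Without this sample the difference of αPD-L1 from IgG2b in wild-type mice in Cd3d was 0.30 in place of 0.44 on the log2 scale.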

How the results depend on the processing

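With limma, 0 members were called in each of the 6 comparisons under the main settings. In Nr2f6-/- against wild type with αPD-L1 DESeq2 called 1 member (Cd8b1, 0.61) and leaving out 1 sample gave 0 to 1, the 1 without wild-type αPD-L1 replicate 3 (Cd8b1, 0.82). For Nr2f6-/- αPD-L1 against wild-type IgG2b a term for the library set, the replicate block and DESeq2 each called 2 members, Cd8b1 (0.95, 0.95 and 0.76) and Trbc2 (0.80, 0.80 and 0.61), in fits that called 0.734%, 0.659% and 1.48% of all genes. The library set term and the block take the genotypes to differ alike in both sets. All other settings, among them the first library set alone, and samples left out gave 0 members in these and the other comparisons. The replicate numbers do not pair the samples: same-numbered samples of different groups had correlations of -0.01 to 0.03 (18 pairs, 0 over 0.1), and the block is given only as a setting. Counts over all genes moved more. Over the settings other than leaving out single samples they spanned 0 to 184 for the genotypes with αPD-L1 (21 as reported), 0 to 88 with IgG2b (0), 12 to 94 for αPD-L1 in wild-type mice (29), 8 to 230 in Nr2f6-/- mice (39), 41 to 177 for both interventions (74) and 0 to 76 for the difference of the αPD-L1 effects (0), the highest always with DESeq2.

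The Cd8a to Cd4 ratio of Nr2f6-/- αPD-L1 over wild-type IgG2b lost an unadjusted p under 0.05 in the first library set (0.96, p = 0.1, exact permutation test, the smallest possible) and under the replicate block (0.96, p = 0.25, exact permutation within numbers, the smallest that 3 pairs allow), and spanned 0.68 to 1.10 when 1 sample was left out, where it kept such a p only without Nr2f6-/- αPD-L1 replicate 6. Without any 1 wild-type IgG2b sample too few samples remained for a p under 0.05. The lowest there was 0.0714 (without replicate 3, exact permutation test), so those omissions cannot show whether the result holds. The difference of the αPD-L1 effect between genotypes in this ratio turned to -0.23 in the first library set and spanned -0.14 to 0.89 with 1 sample left out, the lowest without Nr2f6-/- IgG2b replicate 1. With 1 sample left out the genotype difference spanned -0.23 (without Nr2f6-/- IgG2b replicate 2) to 0.81 with IgG2b and 0.37 to 1.04 with αPD-L1, and the αPD-L1 effect -0.11 (without wild-type αPD-L1 replicate 3) to 0.56 in wild-type and 0.12 to 1.16 in Nr2f6-/- mice. The second library set alone gave 1.27 for the genotype difference with αPD-L1. The first alone gave 0.91 for the αPD-L1 effect in wild-type and 0.68 in Nr2f6-/- mice. The cause of these changes was not tested. Cd4 changed sign: its genotype difference with αPD-L1 was 0.24 in the first library set and -0.37 to 0.054 with 1 sample left out, and its αPD-L1 effect 0.0066 in wild-type mice with edgeR, with ranges of -0.31 to 0.11 in wild-type and -0.66 to 0.063 in Nr2f6-/- mice with 1 sample left out. Members without overlap between genotypes with IgG2b were 1 in place of 2 when scaled to the same total, against 5.3% in place of 6.1% of all genes. This alternative was chosen after seeing the data, like the second library set alone and the settings tried for the further ratios, none of which gave a called ratio (0 in each). Total scaling moved group totals by at most 0.09 log2. The replicate block was not run for the difference of the αPD-L1 effects in the ratio.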
